A study of Mus musculus with 8 samples.

Results

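Untreated Hepa1-6 cells, a mouse hepatoma line, were examined for which liver, metabolic, receptor and growth genes they express and which they lack. The 2 untreated control libraries, of 8 libraries in the series, were chosen by their titles and by no measured value. Their titles number them 14 and 16, with no explanation of what that stands for. The other 6 libraries came from cells exposed for 24 h to trimethylamine N-oxide (TMAO) at 50 µM, to the cytokine TNF-α at 50 ng/ml, or to both, with 2 libraries each. The control cells received none of these agents. All cells were kept in DMEM with 10% fetal bovine serum, and the labels give the strain as C57BL/6. The line is a single established tumour line, and the labels do not say that the libraries came from separate cultures, so the spread between them may be technical.

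Hepatocytes make most plasma proteins, and they run gluconeogenesis, the urea cycle, bile acid synthesis and drug oxidation. Their identity is held by a network of transcription factors around HNF4A, the FOXA proteins and C/EBP proteins. Fetal hepatocytes (hepatoblasts) make alpha-fetoprotein and divide, and hepatoma cells often keep part of that state. Cholangiocytes, which line the bile ducts, share a precursor with hepatocytes. In adult liver, Wnt signalling through beta-catenin marks the cells around the central vein, and mutations of that pathway are frequent in liver tumours.

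Levels are in TPM, transcript abundance corrected for gene length and scaled to the same total in each library, so genes can be set beside each other. Each pair of values is for control 14 and then control 16. A gene was called expressed at 1 TPM or more in both libraries and lacking under 0.1 TPM in both. No test was made, because the levels are those of a single group of 2 libraries. By these rules 13237 of 54234 symbols were expressed, 24.4%, and 32574 were lacking, 60.1%. Many of those symbols are predicted genes and pseudogenes, so protein-coding genes give the closer background. Of 21802 protein-coding symbols 11052 were expressed, 50.7%, and 8133 were lacking, 37.3%. The median protein-coding gene stood at 1.45 TPM. Of the expressed protein-coding genes, 10674 (96.6%) were at 1 TPM or more in all 8 libraries.

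The control libraries held 29705203 and 29110051 counts, against 24736746 to 30488605 in the 6 treated libraries. At that depth 3 counts, the limit that a count of 0 allows, are worth 0.101 and 0.103 CPM (counts scaled to the library total), and this covers counting error only. Across the 13754 symbols with a mean of 1 TPM or more the median difference between the control libraries was 1.13-fold. Of these symbols 450, or 3.27%, lay at least 2-fold apart, 146 (1.06%) above and 304 (2.21%) below in control 14. Among 329 list members with a mean of 1 TPM or more, 2 lay at least 2-fold apart, the acyltransferase gene Agpat2 and Igf2. Agpat2 stood at 13.9 and 28.3 TPM but had 601 and 566 counts, so the deposited TPM and the counts differ on it.

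The count table was used as a check on the TPM table. TPM computed from the counts and exon lengths had a Pearson correlation of 0.964 with deposited TPM in each control library, on the log2 scale and across symbols, which are not independent replicates. Of 11052 expressed protein-coding genes 368, or 3.33%, had a count-based level at least 4-fold below the deposited one in both libraries. Exons of other genes covered a median of 29.4% of their exon length, against 0% for the other expressed genes. Among the listed genes this applied to Trf, Cfb, Fdps, Hsd3b7, Igf2, Chkb, Nr1i3 and Hba-a2, whose levels are uncertain here. Tlr4 differed the other way, at 4.37 and 4.82 TPM against 23.9 and 29.8 TPM from counts.

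The 4 genes that mark the line were all expressed. Albumin (Alb, ENSMUSG00000029368.10), the main plasma protein of adult liver, stood at 1187 and 1199 TPM (mean 1193 ± 8.42, SD, n = 2), rank 100 among protein-coding genes. Alpha-fetoprotein (Afp, ENSMUSG00000054932.6), its fetal relative, stood at 1541 and 1561 TPM (1551 ± 14.1), rank 71. Both were among the most abundant messages that are neither mitochondrial nor ribosomal. Afp exceeded Alb by 0.38 on the log2 scale in both libraries by deposited TPM, whereas by counts and exon length it was lower by 0.15 in both, so their order is not settled. Hnf4a (ENSMUSG00000017950.16), the nuclear receptor at the centre of the hepatocyte network, had 129 and 142 TPM (135.8 ± 8.96). Axin2 (ENSMUSG00000000142.15), which Wnt signalling induces and which limits it, had 227 and 234 TPM (230.4 ± 4.49).

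In a pair of gene clusters neighbouring liver genes differed widely in level, and the RefSeq sequences around their starts (build GRCm38.p6, 250 bases before to 50 after) are printed for that reason. Alb, Afp and afamin (Afm) lie side by side on chromosome 5, with the vitamin D binding protein gene (Gc) on the same chromosome, and all 4 proteins are one family. Afm and Gc were added after their values were seen. Gc stood at 17.6 and 19.7 TPM and Afm at 0.305 and 0.434 TPM, so the family spans more than 3 orders of magnitude from Afp to Afm. Capitals mark the letters GTTAATNA on either strand, the first 8 letters of a palindromic motif known from liver promoters.
Alb, chr5:90460620-90460919, plus strand: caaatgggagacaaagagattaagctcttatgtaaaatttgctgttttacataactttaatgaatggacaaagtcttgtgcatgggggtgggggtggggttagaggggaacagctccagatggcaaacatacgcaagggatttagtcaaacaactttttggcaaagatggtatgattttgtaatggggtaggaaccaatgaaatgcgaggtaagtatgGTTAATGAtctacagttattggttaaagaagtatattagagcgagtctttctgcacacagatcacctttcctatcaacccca
Afp, chr5:90490464-90490763, plus strand: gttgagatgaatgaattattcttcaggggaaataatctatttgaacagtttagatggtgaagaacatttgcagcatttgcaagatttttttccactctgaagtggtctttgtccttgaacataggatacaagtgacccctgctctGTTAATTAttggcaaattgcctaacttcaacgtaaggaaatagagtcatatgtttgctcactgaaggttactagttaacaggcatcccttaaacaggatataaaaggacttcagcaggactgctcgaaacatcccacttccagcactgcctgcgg
Afm, chr5:90518699-90518998, plus strand: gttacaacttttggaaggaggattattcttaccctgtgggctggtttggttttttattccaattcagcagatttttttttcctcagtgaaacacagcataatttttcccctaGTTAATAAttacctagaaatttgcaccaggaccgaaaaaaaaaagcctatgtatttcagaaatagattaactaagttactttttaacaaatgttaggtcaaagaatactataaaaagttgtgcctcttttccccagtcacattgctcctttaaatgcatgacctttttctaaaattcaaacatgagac
Gc, chr5:89457849-89458148, minus strand: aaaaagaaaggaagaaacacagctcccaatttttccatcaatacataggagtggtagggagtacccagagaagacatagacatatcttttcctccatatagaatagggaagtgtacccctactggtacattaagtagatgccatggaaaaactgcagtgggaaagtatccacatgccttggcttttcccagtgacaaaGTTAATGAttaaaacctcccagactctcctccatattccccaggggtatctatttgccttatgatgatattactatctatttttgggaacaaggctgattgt

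All 4 windows held the 8-letter motif, the expressed Alb and Afp as well as Afm under 1 TPM. The match began 32 bases before the start of Alb, 105 before Afp, 138 before Afm and 52 before Gc. The shorter motif was chosen after the full palindrome had been found in 3 of 27025 genes with a window and in none of the listed plasma protein and enzyme genes. The 8 letters occurred in 2.73% of 16499 protein-coding genes with a window. In the plasma protein and mature enzyme lists they occurred in 1 of 12 expressed genes with a window and in 4 of 22 lacking ones. The TATA motif TATAAA occurred in 41.7% of the expressed and 45.5% of the lacking genes of these lists, against 14.3% of protein-coding genes. Neither motif was found in a larger share of the expressed than of the lacking genes of these lists, and a match is only a run of letters.

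The fibrinogen genes are the other cluster. Fibrinogen is built from an alpha, a beta and a gamma chain, encoded by Fga, Fgb and Fgg side by side on chromosome 3. Fgb stood at 41.5 and 42.6 TPM, with 2418 and 2256 counts. Fga was lacking at 0.0569 and 0.0744 TPM and 2 counts in each library. Fgg was listed at 0 TPM with 0 counts in both, which allows at most 0.164 and 0.177 TPM. So the beta chain gene alone of the 3 was expressed, in both libraries and in both tables. Capitals mark the same 8 letters, which were found in the window of Fga and not in those of Fgb and Fgg.
Fga, chr3:83025903-83026202, plus strand: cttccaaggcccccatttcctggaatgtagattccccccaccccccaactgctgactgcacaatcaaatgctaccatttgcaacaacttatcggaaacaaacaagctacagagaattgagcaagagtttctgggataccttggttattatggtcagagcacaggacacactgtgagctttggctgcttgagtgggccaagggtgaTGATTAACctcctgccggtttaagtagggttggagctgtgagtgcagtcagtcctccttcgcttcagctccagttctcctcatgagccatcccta
Fgb, chr3:83049814-83050113, minus strand: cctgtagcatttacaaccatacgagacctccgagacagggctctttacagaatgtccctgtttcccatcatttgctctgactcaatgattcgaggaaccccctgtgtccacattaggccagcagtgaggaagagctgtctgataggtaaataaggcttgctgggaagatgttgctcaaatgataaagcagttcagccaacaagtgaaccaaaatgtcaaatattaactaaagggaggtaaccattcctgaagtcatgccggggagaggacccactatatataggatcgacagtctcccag
Fgg, chr3:83007474-83007773, plus strand: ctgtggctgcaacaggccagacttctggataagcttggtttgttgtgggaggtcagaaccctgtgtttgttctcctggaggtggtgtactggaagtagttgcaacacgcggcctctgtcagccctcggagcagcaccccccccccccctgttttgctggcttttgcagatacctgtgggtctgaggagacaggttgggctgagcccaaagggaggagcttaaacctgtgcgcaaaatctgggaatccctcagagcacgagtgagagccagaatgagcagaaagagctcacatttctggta

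The transcription factors of the hepatocyte network were largely expressed. Of 20 listed, 17 were expressed (85%, against 50.7% of protein-coding genes) and 2 were lacking (10%, against 37.3%). Their median was 19.3 TPM against 1.45 TPM for protein-coding genes. After Hnf4a came Xbp1, a factor of secretory cells, at 86.2 and 89.9 TPM. Hhex, a homeobox gene of early liver, had 70.7 and 66.5 TPM, and Tbx3, a T-box factor of hepatoblasts, had 49.1 and 52.7 TPM. The network factors Foxa3 (48.5 and 46.3 TPM), Foxa2 (31.1 and 28.9 TPM) and Cebpa (20.5 and 17.2 TPM) were present as well. Onecut1 (6.9 and 7.06 TPM) and Foxa1 (5.7 and 5.73 TPM) were lower. The bile acid receptor gene Nr1h4 had 3.82 and 4.62 TPM, and Nr0b2, which that receptor induces in liver, was listed at 0 with 0 counts. Gata6 was listed at 0 while Gata4 had 19.7 and 20 TPM. Creb3l3, a membrane-bound factor of the fasting liver, lay between the calls at 0.437 and 0.61 TPM.

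Of 31 plasma protein genes 10 were expressed (32.3%, against 50.7% of protein-coding genes), 11 were lacking (35.5%, near the background of 37.3%) and 10 lay between, with a median of 0.356 TPM. Beside Alb, Rbp4, the retinol carrier, stood at 946 and 893 TPM and hemopexin (Hpx), which binds haem, at 195 and 184 TPM. The complement gene C3 had 169.8 and 191 TPM, and Apob, the structural protein of very low density lipoproteins, had 29.4 and 44.7 TPM. These genes had 3791 to 15785 counts in each library. Transferrin (Trf) was listed at 197 and 191 TPM with 76 and 56 counts, and complement factor B (Cfb) at 35.4 and 38.3 TPM with 60 and 71 counts, both among the genes that share exons with other genes.

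Several of the most abundant messages of liver were near 0. Transthyretin (Ttr), the thyroid hormone carrier, had 0.294 and 0.128 TPM and 5 and 2 counts. Apolipoprotein A-I (Apoa1), the main protein of high density lipoprotein, had 0.653 and 0.394 TPM and 10 and 9 counts. Fetuin A (Ahsg) stood at 0.727 and 0.816 TPM while fetuin B (Fetub), its neighbour in the family, had 21.1 and 20.3 TPM. Apoa2 reached 2.58 and 3.4 TPM. The lacking members were Apoh, Fga, Fgg, Serpina1a, F7, F10, Plg, Serpina6, Itih1, Itih3 and Vtn. They include coagulation factors, plasminogen and the alpha-1-antitrypsin paralog Serpina1a, whose family shares near-identical sequence and so is uncertain.

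Genes of mature hepatocyte function were mostly lacking. Of 30 enzymes and transporters, 6 were expressed (20%, against 50.7% of protein-coding genes) and 17 were lacking (56.7%, against 37.3%). Their median was 0.0239 TPM, the lowest of the liver lists. The expressed members were led by Abcc2, the canalicular exporter of conjugated bilirubin, at 93.4 and 118 TPM. Argininosuccinate lyase (Asl) had 80.5 and 63.6 TPM, the sterol hydroxylase Cyp27a1 18.6 and 17.2 TPM and argininosuccinate synthase (Ass1) 14.8 and 13.6 TPM. Tat, the tyrosine aminotransferase, had 7.4 and 7.11 TPM. Slc10a1, the bile acid uptake carrier, stood between the calls at 0.319 and 0.354 TPM with 13 and 19 counts. Otc, Cyp3a11, Tdo2, Cyp8b1, Fabp1 and Uox had 0 counts in both libraries. For Fabp1, a short message, 0 counts allow at most 0.62 and 0.669 TPM.

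**Figure D1:**
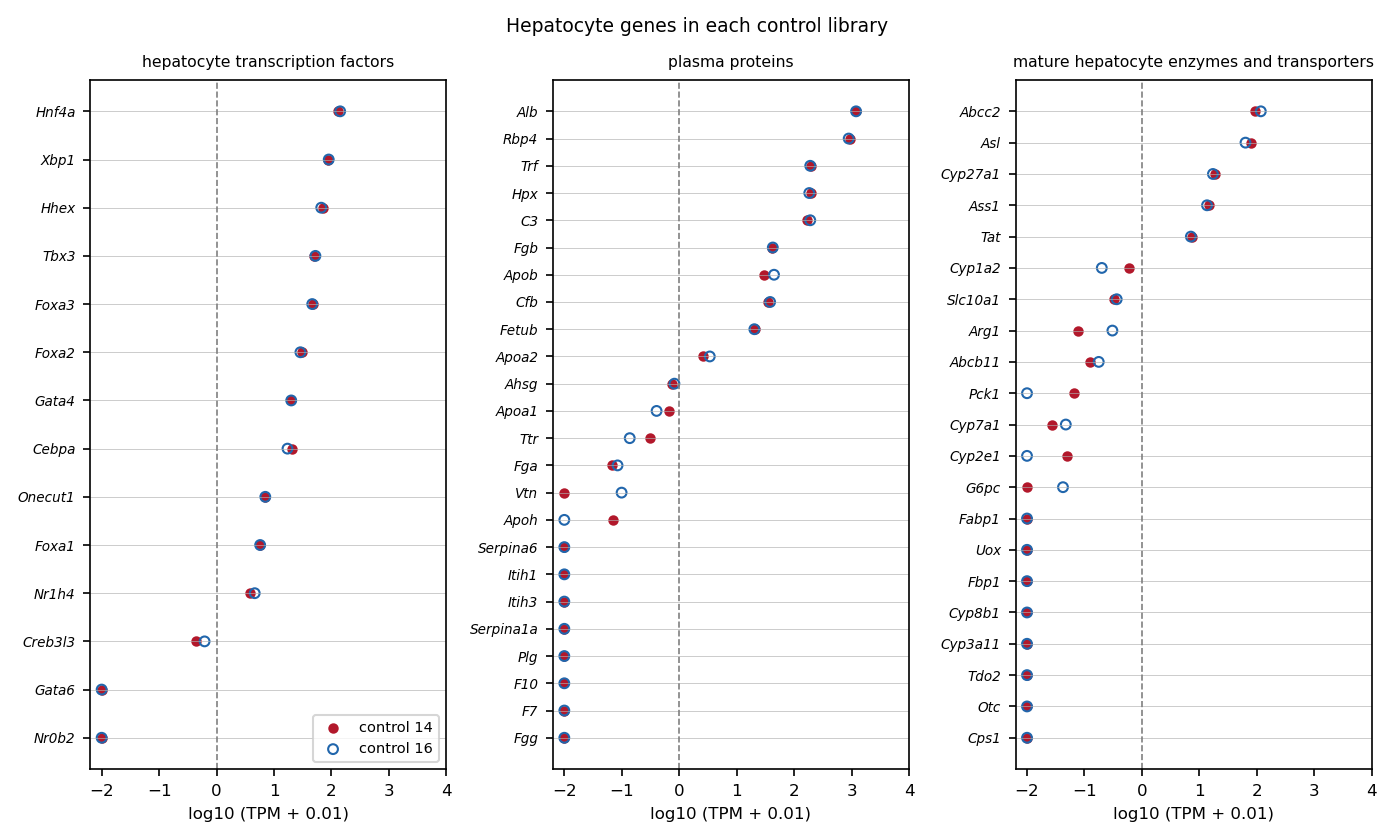
Levels of the hepatocyte transcription factors, plasma proteins and mature enzymes and transporters named in the text, in control 14 (filled) and control 16 (open), as log10 of TPM plus 0.01, with a dashed line at 1 TPM. Of all listed transcription factors 17 of 20 were expressed, against 10 of 31 plasma proteins and 6 of 30 enzymes and transporters. Genes listed at 0 TPM lie at the left edge.

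Of 23 fetal liver and oncofetal genes, 10 were expressed (43.5%) and 8 lacking (34.8%), with a median of 0.348 TPM. These shares are near the 50.7% and 37.3% of protein-coding genes. Below Afp came Tspan8, a tetraspanin of tumour cells, at 330.4 and 311 TPM, and Hmga1, a chromatin protein of embryonic and tumour cells, at 282 and 256 TPM. The RNA-binding proteins of the IGF2BP family were all expressed, Igf2bp1 at 106 and 124, Igf2bp3 at 37.9 and 44 and Igf2bp2 at 25.5 and 27.1 TPM. Sox4, a factor of progenitor cells, had 74.9 and 88.4 TPM. Gpc3, a surface proteoglycan used as a marker of hepatocellular carcinoma, was low at 5.25 and 5.17 TPM. Lin28b, which blocks maturation of the let-7 microRNAs, straddled the line at 0.927 and 1.11 TPM, and its paralog Lin28a was listed at 0.

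Igf2 and H19, neighbouring imprinted genes that are abundant in fetal liver, did not share the level of Afp. H19 stood at 0.108 and 0.262 TPM with 2 and 4 counts. Igf2 was listed at 10.4 and 1.05 TPM, which met the rule for expressed, but had 1 and 0 counts, and exons of other genes cover 64.5% of its exon length. The deposited level of Igf2 is therefore uncertain. Dlk1, Lin28a, Sall4, Ccnd2, Plagl1, Peg10, Peg3 and Cdkn1c were lacking, each with 0 counts in both libraries.

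Of 18 cholangiocyte markers of the bile duct lineage, 10 were expressed (55.6%, near the 50.7% of protein-coding genes). Another 4 were lacking (22.2%, against 37.3%), and the list median was 6.15 TPM. Annexin A4 (Anxa4) had 366 and 383 TPM and osteopontin (Spp1) 378 and 369.5 TPM. The trefoil factor gene Tff2 had 105 and 99.7 TPM, the anion exchanger gene Slc4a2 39.8 and 40.1 TPM and the tight junction gene Cldn4 39.1 and 38.3 TPM. The duct factor gene Sox9 (23.2 and 25.1 TPM) and the adhesion gene Epcam (13 and 13.2 TPM) were present. The duct keratins were weaker, with Krt7 at 5.45 and 5.2 TPM and Krt19 at 0.199 and 1.1 TPM. Cftr, Sctr and Krt23 were lacking, the first of which is the chloride channel and the second the secretin receptor of mature ducts.

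Among keratins and junction genes, 9 of 15 were expressed (60%, near the 50.7% of protein-coding genes) and 3 lacking (20%, against 37.3%). Fibronectin (Fn1), a matrix protein, reached 2095 and 2543 TPM, and the simple epithelial keratins reached 1698 and 1572 TPM for Krt18 and 712 and 673 TPM for Krt8. Vimentin (Vim), a filament protein of mesenchymal and many cultured cells, had 199 and 213 TPM. The hepatocyte gap junction genes Gjb1 (0.132 and 0 TPM) and Gjb2 (0 and 0 TPM) had at most 4 counts in a library. E-cadherin (Cdh1) stood at 0.278 and 0.289 TPM and N-cadherin (Cdh2) at 40.1 and 45.2 TPM.

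That cadherin contrast was 1 of 18 pairs of related genes. The first was entered as the fetal or widespread form and the second as the form of adult liver. These entries were not checked against adult liver, and the Afp and Alb, Igf2 and Igf1 and cadherin pairs are not isozymes. A count over the pairs is therefore no measure of lost adult liver forms. Lactate dehydrogenase was entered with Ldhb first. The first gene was at least 2-fold higher in both libraries in 14 pairs, the second in 2 pairs, and 2 pairs were closer than that. From counts and exon length the first gene was at least 2-fold higher in 13 of these 14 pairs, the exception being Igf2 over Igf1. Fabp5 had 209 and 211 TPM and Fabp1 was listed at 0. Mat2a, which makes S-adenosylmethionine outside adult liver, had 172 and 205 TPM against 0.359 and 0.0449 TPM for Mat1a. In these pairs the adult liver form was all but missing.

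In the following pairs the first gene was likewise the higher, with unequal levels of the second. Slc2a1 had 90.9 and 88.1 TPM against 0.398 and 0.542 TPM for the liver transporter Slc2a2. Pkm had 1450.2 and 1515 TPM, and the liver pyruvate kinase Pklr had 28.7 and 26.3 TPM. For arginase, Arg2 had 10.5 and 9.69 TPM and the liver form Arg1 0.0664 and 0.296 TPM, and for enolase Eno1 had 1336 and 1220.3 TPM against 60.3 and 55 TPM for Eno3. For glycogen, Gys1 (30.1 and 31.1 TPM) and Pygb (57.2 and 59.1 TPM) were expressed, while the liver forms Gys2 (0 and 0.0587 TPM) and Pygl (0.112 and 0 TPM) did not pass the line.

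For phosphofructokinase and lactate dehydrogenase the second gene of the pair was the higher. Pfkl and Ldha are also in the glycolysis list, so this is not read as a kept liver form. Pfkl had 112 and 107 TPM against 31.3 and 32.1 TPM for Pfkp. Ldha had 1081 and 1087 TPM and Ldhb 0 and 0.0598 TPM, a log2 difference of Ldhb over Ldha of -13.40 and -12.73. For acyl-CoA synthetases, Acsl4 (56 and 66.6 TPM) and Acsl1 (94.8 and 112 TPM) differed by -0.76 and -0.75 on the log2 scale, and the sign was the other way from counts (0.53 and 0.65). Igf2 over Igf1 turned from a mean of 4.82 by deposited TPM to -0.31 from counts. Neither gene had more than 3 counts in a library, and it is not read as a difference.

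**Figure D2:**
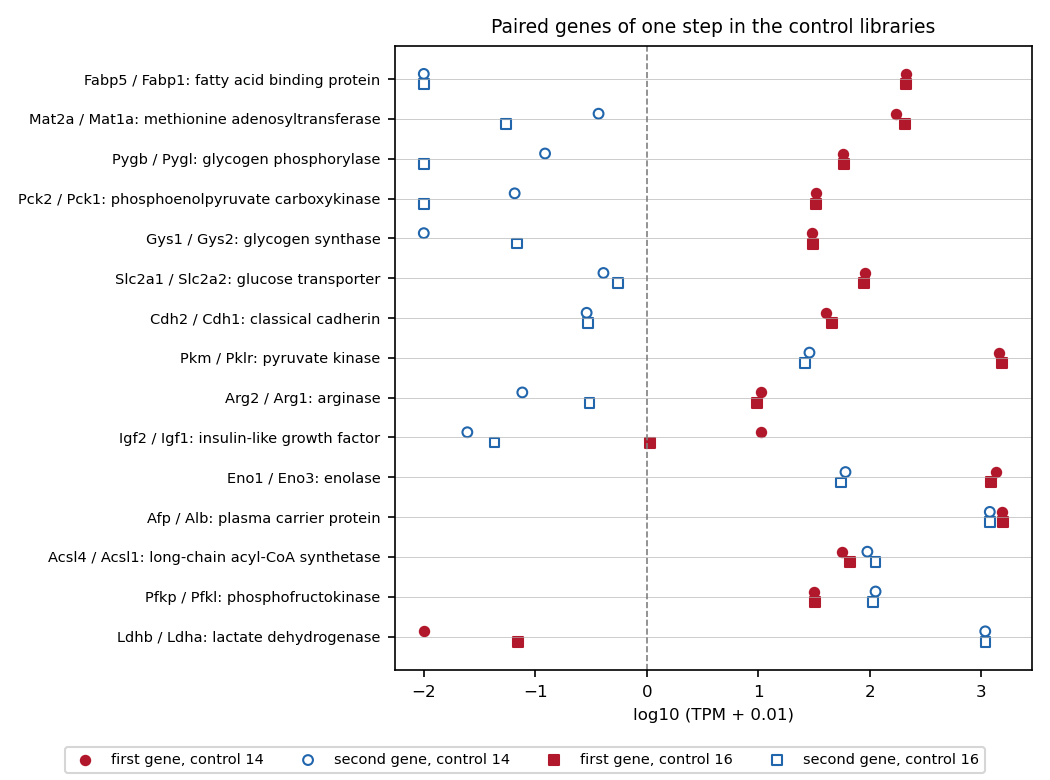
Levels of 15 of the 18 pairs of genes in control 14 (circles) and control 16 (squares), as log10 of TPM plus 0.01, with the first gene filled, the second open and a dashed line at 1 TPM. The first gene lies at least 2-fold to the right in 11 of the pairs drawn, and Ldha and Pfkl lie to the right of Ldhb and Pfkp.

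Glycolysis was expressed almost throughout. Of 17 listed genes with a usable row, 16 were expressed (94.1%, against 50.7% of protein-coding genes) and none was lacking, with a median of 109.6 TPM. Gapdh had 3141 and 2708 TPM, Pkm 1450.2 and 1515 TPM, Eno1 1336 and 1220.3 TPM and Pgk1 1125 and 1135 TPM. The lactate exporter Slc16a1 had 78.5 and 80.2 TPM, whereas Slc16a3, the exporter typical of hypoxic cells, stood at 0.371 and 0.557 TPM. Pseudogenes of Gapdh share its sequence, so its level is uncertain by their part.

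Of 13 listed genes of gluconeogenesis and glycogen, 7 were expressed and 4 lacking. These shares, 53.8% and 30.8%, are near the 50.7% and 37.3% of protein-coding genes. The lacking members were G6pc, Fbp1, Pck1 and Gys2, with at most 2 counts in a library. Those 4 are the glucose-releasing phosphatase, the fructose bisphosphatase, the cytosolic carboxykinase and the liver glycogen synthase. The mitochondrial carboxykinase Pck2 had 32.5 and 33.1 TPM and pyruvate carboxylase (Pcx) 11.7 and 12.6 TPM. The glucose-6-phosphate transporter Slc37a4 had 13.1 and 13.3 TPM.

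Lipid synthesis was expressed and lipid oxidation nearly so. In fatty acid and triglyceride synthesis 18 of 19 genes were expressed (94.7%, against 50.7% of protein-coding genes), with a median of 47.5 TPM. Scd2 (342 and 389 TPM) exceeded Scd1 (103 and 119.8 TPM), the main desaturase of liver. Fasn, the fatty acid synthase, had 155 and 172 TPM and Acly, which supplies its acetyl-CoA, 173 and 196 TPM. Malic enzyme (Me1), a source of NADPH, had 199.98 and 214 TPM. The exception was Thrsp, a lipogenic gene of liver and fat, at 0.157 and 0.261 TPM. In cholesterol synthesis and uptake 16 of 18 were expressed (88.9%), with a median of 50.4 TPM. Sqle, an oxygenase of the sterol pathway, had 166 and 195 TPM. Abcg5 and Abcg8, the sterol exporters of the canaliculus, were lacking.

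In fatty acid oxidation and peroxisomes 14 of 20 genes were expressed (70%, against 50.7% of protein-coding genes), with a median of 29.7 TPM. The acyl-CoA dehydrogenase genes had 163 and 162 TPM for Acadl, 71.9 and 73.6 TPM for Acadvl and 62.1 and 67.4 TPM for Acadm. Cpt1a, the entry step of mitochondrial oxidation, had 42.2 and 45.1 TPM. The receptor Ppara, which drives this set in liver, stood at 0.189 and 0.137 TPM with 12 and 7 counts. Its targets Cyp4a10 and Cyp4a14, fatty acid hydroxylases, were lacking.

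Nitrogen, bile acid and drug genes had list medians under the protein-coding median. Of 20 urea cycle and amino acid genes 8 were expressed (40%) and 7 lacking (35%), with a median of 0.302 TPM. Of protein-coding genes 50.7% were expressed and 37.3% lacking. Glul, the glutamine synthetase of pericentral hepatocytes, had 209.7 and 209 TPM and Glud1 192 and 206 TPM. Cps1, the first enzyme of the urea cycle, had 1 and 0 counts. The later enzymes Ass1 and Asl were expressed, Otc was lacking, and Arg1 had 0.0664 and 0.296 TPM. So Cps1 and Otc, at the mitochondrial start of the cycle, were lacking, and Arg1 lay between the calls.

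Of 16 bile acid genes 7 were expressed (43.8%) and 6 lacking (37.5%), near the 50.7% and 37.3% of protein-coding genes. Abcc3, a basolateral exporter, had 47.2 and 50.5 TPM and Cyp7b1 11.4 and 10.9 TPM. Cyp7a1, the rate-limiting enzyme of the classical route, stood at 0.0176 and 0.0374 TPM with 1 and 2 counts, and Abcb11, the bile salt export pump, at 0.113 and 0.167 TPM. Hsd3b7 was listed at 27.1 and 15.3 TPM with 0 counts in both, and exons of other genes cover 99.2% of its exon length.

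Of 21 drug metabolism genes 10 were expressed (47.6%) and 5 lacking (23.8%), with a median of 0.389 TPM. Of protein-coding genes 50.7% were expressed and 37.3% lacking. Cyp1a1, the classic target of the aryl hydrocarbon receptor, had 88.9 and 92.7 TPM, whereas Cyp1a2 had 0.588 and 0.19 TPM. The glutathione transferase genes had 608 and 566 TPM for Gstp1 and 119 and 118 TPM for Gstm1. The epoxide hydrolase Ephx1 had 204 and 199 TPM and the P450 reductase gene Por 188 and 155 TPM. Cyp3a13 had 14.1 and 15 TPM. Cyp2e1, Cyp3a11, Cyp2b10, Cyp2d10 and Cyp2f2 were lacking, and several of these are abundant in liver. Glutathione transferase and P450 genes have close paralogs, and their levels are uncertain by that part.

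The list that bears on TMAO held 14 genes of flavin monooxygenases and choline metabolism, 6 of them expressed and 5 lacking. These shares, 42.9% and 35.7%, are near the 50.7% and 37.3% of protein-coding genes. Fmo1 stood between the calls at 0.552 and 0.723 TPM, Fmo5 at 0.356 and 0.588 TPM and Fmo4 at 0.279 and 0.267 TPM. Fmo2 was past the line, at 5.62 and 6.59 TPM with 308 and 326 counts. Chka, which phosphorylates choline, had 138 and 174 TPM, the choline transporter Slc44a1 39.6 and 45.4 TPM and Aldh7a1, an aldehyde dehydrogenase that can make betaine, 143 and 136 TPM. Chdh, which oxidises choline, and Bhmt, which uses betaine, were lacking at 0 counts. The organic cation carrier Slc22a2 was also at 0 counts.

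**Figure D3:**
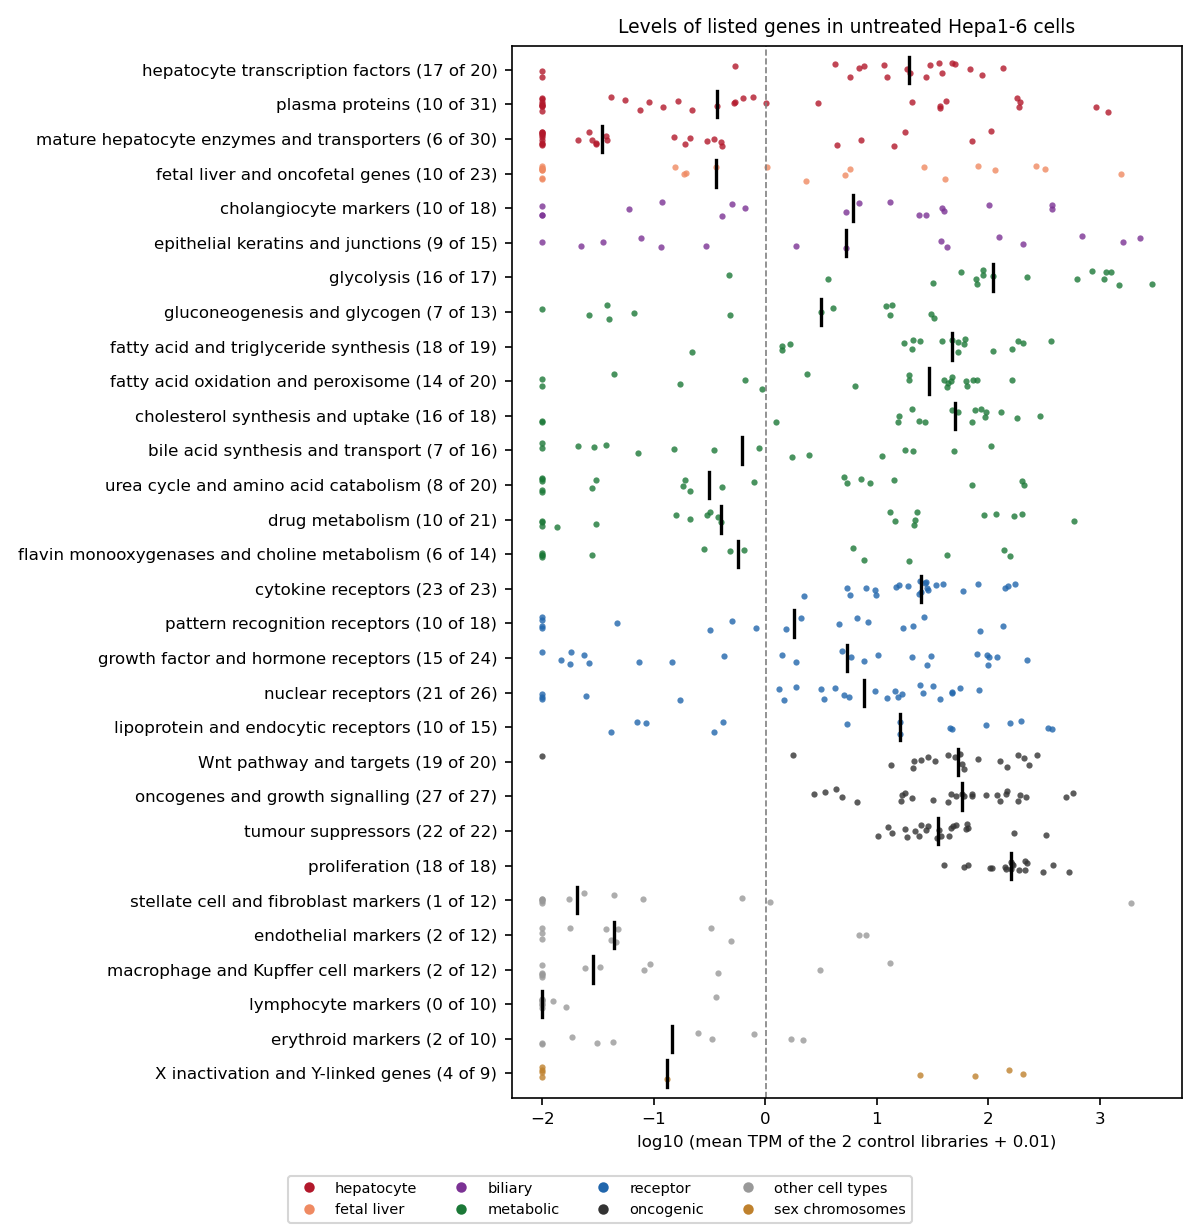
Mean level of each member of the 30 lists in the 2 control libraries, as log10 of TPM plus 0.01, with a black bar at the list median and a dashed line at 1 TPM. Numbers in brackets give the members expressed of those measured. The medians of the Wnt, oncogene, tumour suppressor and proliferation lists lie right of the line, although Dkk1 of the Wnt list lies left. Those of the 5 lists of other cell types lie left of it, although 7 of 56 such markers, Dcn the highest, were expressed.

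Receptors for cytokines were all expressed, 23 of 23 against 50.7% of protein-coding genes, with a median of 24.8 TPM. Tnfrsf1a, the main receptor of TNF-α, had 142 and 142 TPM, and Tnfrsf1b, its second receptor, 5.48 and 6.12 TPM. Tnfrsf12a, the receptor of TWEAK, had 171 and 178 TPM and Ltbr, the lymphotoxin receptor, 154 and 146 TPM. Among receptors of the IL-6 family Lifr had 68.5 and 94.3 TPM, the shared chain Il6st 20.2 and 36 TPM and Il6ra 17.2 and 20.8 TPM. The interferon receptor genes Ifnar1 (37.6 and 41.3 TPM) and Ifngr1 (63.3 and 56.7 TPM) were present. The lowest of the list was Il1rap at 1.98 and 2.48 TPM.

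Of 18 pattern recognition genes 10 were expressed (55.6%) and 5 lacking (27.8%), near the 50.7% and 37.3% of protein-coding genes. The RNA sensor gene Ddx58 (RIG-I) had 133 and 138 TPM and Ifih1 (MDA5) 23.8 and 29.2 TPM. Tmem173 (STING) had 86.4 and 83.7 TPM, while Cgas, which makes the signal that STING reads, was lacking at 0 and 0.0725 TPM under its older symbol Mb21d1. Cd14, a co-receptor for lipopolysaccharide, had 22 and 20.5 TPM. The toll-like receptor genes Tlr3 (7.72 and 9 TPM) and Tlr2 (6.4 and 6.98 TPM) were present, Tlr5 and Tlr9 had 0 counts, and Nod2 and Nlrp3 were lacking.

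Growth factor and hormone receptors were uneven. Of 24, 15 were expressed and 7 lacking, with a median of 5.36 TPM. Axl had 205 and 237 TPM, Met, the hepatocyte growth factor receptor, 83.8 and 118 TPM, Egfr 70.3 and 89.9 TPM and Fgfr1 86.4 and 114 TPM. The adiponectin receptor gene Adipor1 had 119 and 118 TPM. Fgfr4, the liver receptor of FGF15, had 29.6 and 31.6 TPM, but its co-receptor Klb stood at 0.458 and 0.375 TPM. The insulin receptor gene Insr had 24.8 and 31.6 TPM, whereas Igf1r had 0.11 and 0.164 TPM with 11 and 19 counts. Gcgr, the glucagon receptor, was lacking at 0 and 0.00916 TPM, and Ghr, the growth hormone receptor, had 4.22 and 5.55 TPM. The share expressed was 62.5%, against 50.7% of protein-coding genes, and the share lacking was 29.2%, against 37.3%.

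Of 26 nuclear receptors 21 were expressed (80.8%, against 50.7% of protein-coding genes) and 4 lacking (15.4%, against 37.3%). The glucocorticoid receptor Nr3c1 had 75.7 and 88.7 TPM and the aryl hydrocarbon receptor gene Ahr, a transcription factor of another family kept in this list, 50.9 and 60 TPM. The orphan receptor gene Esrra had 49.2 and 45.4 TPM and Nr1h2, an oxysterol receptor, 48.8 and 45 TPM. The xenobiotic receptor Nr1i2 (PXR) was lacking with 1 and 4 counts, and Nr1i3 (CAR) was listed at 4.29 and 2.48 TPM with 7 and 9 counts and shared exons. Rarb and Nr2f1 had 0 counts. Of 15 lipoprotein and endocytic receptors 10 were expressed (66.7%). Cd9 stood at 371 and 370.2 TPM, Cd81 at 342 and 348 TPM and Tfrc at 173 and 217 TPM. Lsr had 166 and 151 TPM and Scarb1 95.2 and 96.8 TPM. The asialoglycoprotein receptor of hepatocytes had Asgr2 at 5.75 and 4.99 TPM and Asgr1 at 0.149 and 0 TPM.

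**Figure D4:**
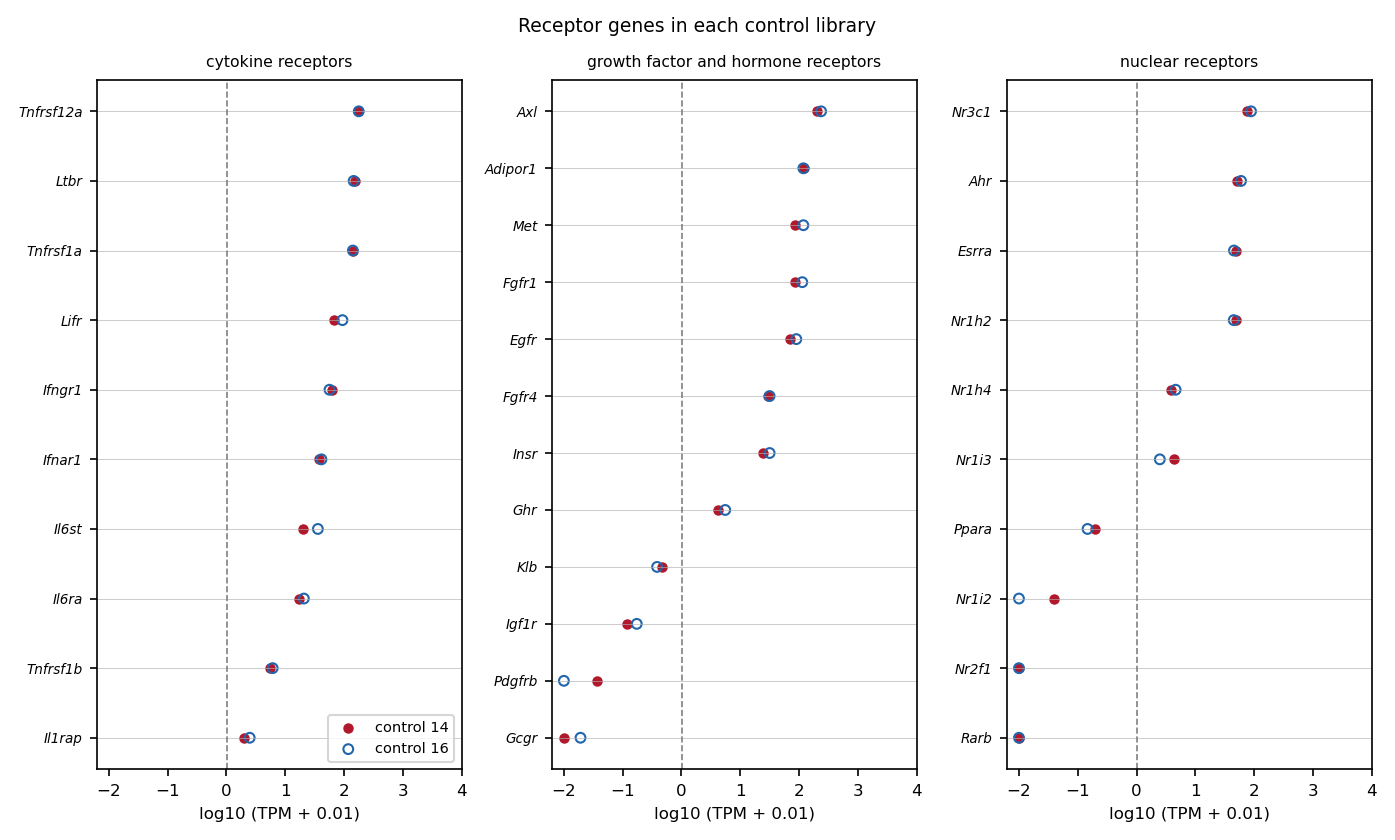
Levels of the cytokine, growth factor and hormone, and nuclear receptor genes named in the text, in control 14 (filled) and control 16 (open), as log10 of TPM plus 0.01, with a dashed line at 1 TPM. All 23 listed cytokine receptor genes were expressed, against 15 of 24 growth factor and hormone receptors and 21 of 26 nuclear receptors.

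Wnt pathway genes and targets were expressed in 19 of 20 cases (95%, against 50.7% of protein-coding genes), with a median of 53.6 TPM. Axin2 stood beside Ctnnb1, the gene of beta-catenin, at 254 and 290.1 TPM. Of genes that Wnt signalling induces, Nkd1 had 154 and 139 TPM, Sp5 87.8 and 72.8 TPM, Lgr5 52.3 and 60.4 TPM, Znrf3 32.5 and 54.9 TPM and Notum 30.6 and 27.4 TPM. Tcf7, a factor of the TCF family, had 163 and 205 TPM against 21.1 and 22.1 TPM for Tcf7l2 and 1.81 and 1.68 TPM for Lef1. Feedback inhibitors were thus expressed beside the pathway's core. Dkk1, a secreted inhibitor, was the member lacking, with 0 counts.

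All 27 genes of the list of oncogenes and growth signalling were expressed, against 50.7% of protein-coding genes, with a median of 58 TPM. Cyclin D1 (Ccnd1) had 565 and 596 TPM and its kinase Cdk4 521 and 479.9 TPM. Birc5, a mitotic survival protein, had 223 and 210.4 TPM and the kinase gene Akt1 191 and 192 TPM. Myc had 134 and 120.2 TPM, Mycl 5.09 and 8.2 TPM and Mycn 3.72 and 3.08 TPM. Nras had 139 and 148 TPM and Hras 122 and 120.1 TPM. Tert, the telomerase gene, had 3.98 and 5.82 TPM with 304 and 327 counts.

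All 22 tumour suppressor genes were expressed, against 50.7% of protein-coding genes. Trp53 had 341 and 317 TPM, and the genes p53 is known to induce, Mdm2 (172 and 197 TPM) and Cdkn1a (175 and 169 TPM), were expressed too. Cdkn2a, which is often deleted in tumour lines, had 51 and 45.9 TPM and its neighbour Cdkn2b 47.4 and 45.2 TPM. Nf2 had 58.1 and 70.9 TPM and Rb1, the lowest, 10.1 and 10.3 TPM. A gene level says nothing of mutations in these genes, which were not examined. All 18 proliferation genes were expressed too, with a median of 161.8 TPM, 15 of them at 100 TPM or more. Top2a had 488 and 565 TPM, Pcna 399 and 363 TPM, Mcm3 302 and 324 TPM and Rrm2 224 and 226 TPM, and Mki67 had 166 and 212 TPM.

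**Figure D5:**
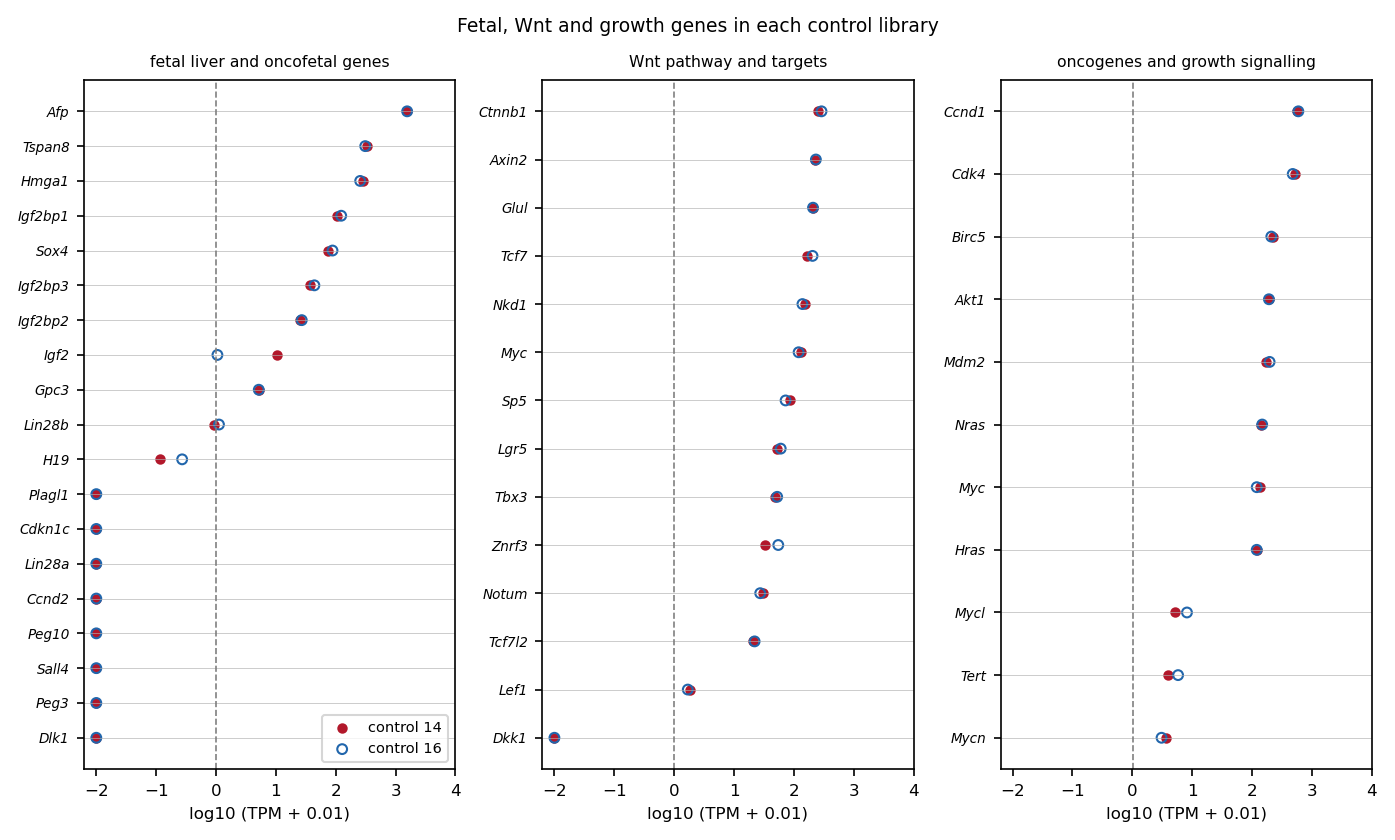
Levels of the fetal liver and oncofetal genes, Wnt pathway genes and targets, and oncogenes and growth signalling genes named in the text, in control 14 (filled) and control 16 (open), as log10 of TPM plus 0.01, with a dashed line at 1 TPM. All 27 listed growth genes and 19 of 20 Wnt genes were expressed, and Igf2 shows the widest gap between the libraries among the expressed genes drawn.

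Markers of other liver cell types were mostly lacking, 71.4% of 56 against 37.3% of protein-coding genes, and 12.5% were expressed against 50.7%. Of 12 stellate cell and fibroblast markers 9 were lacking and 1, decorin (Dcn), was expressed. Dcn, a matrix proteoglycan of connective tissue, stood at 1892 and 1906 TPM, rank 50 among protein-coding genes, while Col1a2, Col3a1, Lum and Pdgfrb were lacking with at most 1 count in a library. Des (1.29 and 0.904 TPM) and Col1a1 (0.461 and 0.744 TPM) lay between the calls, and Reln had 0.0502 and 0.088 TPM. The summed level of that list, 1894 and 1908 TPM, was nearly all Dcn. Of 12 endothelial markers, which summed to 15.3 and 16.2 TPM, 8 were lacking. The highest were Stab1 at 8.9 and 6.94 TPM, Egfl7 at 5.69 and 8.05 TPM, Pecam1 at 0.14 and 0.826 TPM and Vwf at 0.439 and 0.189 TPM. Of 12 macrophage markers, which summed to 16.5 and 17.4 TPM, 9 were lacking. The highest were Cd68 at 12.7 and 13.9 TPM and Csf1r at 3.22 and 2.98 TPM. Lyz2 (0.379 and 0.348 TPM) and Ptprc (0.077 and 0.0865 TPM) came next, and Clec4f, Vsig4, Marco and Timd4 were at 0 counts. None of 10 lymphocyte markers, which summed to 0.333 and 0.38 TPM, was expressed, and Cd79a was the highest at 0.316 and 0.38 TPM, before Cd8a (0.0127 and 0 TPM) and Cd3e at 0. Of 10 erythroid markers Hba-a1 (2.14 and 2.17 TPM) and Hba-a2 (1.95 and 1.42 TPM) met the rule, the first with 6 and 9 counts and the second with 0 in both, and these near-identical copies are uncertain. Epor (0.418 and 1.15 TPM) and Alas2 (0.441 and 0.198 TPM) lay between the calls. Whether other cells add to the levels of the liver lists was not tested.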

How the data were processed

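RNA from the 2 untreated Hepa1-6 libraries was described, with the other 6 libraries used only to see which calls held in all 8. Per the labels' protocols, mRNA was isolated with oligo beads from Trizol extracts and sequenced on an Illumina platform as paired reads of 150 bases. The submitters' processing notes name build mm9. The authors deposited a table of counts per versioned Ensembl gene, whose name names htseq as the counter, and a table of TPM per gene symbol. The aligner, the program behind the TPM values, the annotation and the strandedness are not stated in the labels or headers. Without strand, overlapping and antisense genes cannot be told apart.

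Of 54446 rows in the TPM table, 212 were left out because their symbol occurs more than once (191) or had become a date (27), some being both. The 2 rows of Aldoa, a repeated symbol, were summed for its pair and used nowhere else. Of the count identifiers 54409 matched the GENCODE M21 annotation, from which symbols, gene types, exon lengths and exon overlap came. That annotation is on another build than mm9, so the coordinates beside the printed sequences are RefSeq's on GRCm38.p6 and not those of the authors' alignment. Calls used 1 and 0.1 TPM. Log ratios used a pseudocount of 0.1. Counts gave CPM and a second TPM, and scaling by TMM used edgeR 4.0.16 in R 4.3.3. Other work used pandas 2.3.3. The call rules were also run on simulated counts. That cannot test calls made on the deposited TPM, which differs from the counts for some genes, and nothing is drawn from it. Unit and design were as planned, with no test between groups.

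The 30 lists, with 514 distinct genes of which 513 were measured, and the pairs were chosen with earlier results of these data known. Named genes were the 4 markers, the 4 highest members of each list, any member whose role is described, both genes of each pair, the highest symbols and those furthest apart between libraries. Apoe, Phgdh, the Sprr genes, Afm, Gc and the imprinted genes were named after their values were seen. Some genes that the rule would name, and 3 pairs, are not reported here; counts and medians cover whole lists. Settings tried were other thresholds, pseudocounts and filters, counts in place of TPM, and each library left out.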

Additional observations from a re-analysis of the deposited data

How the results depend on the processing

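Of 366 recomputed counts of genes, list members and shares, 345 stayed within the limits set (1.5 times for a count, 1 SD for a share). The number of expressed symbols and the number of lacking symbols stayed within 1.5 times under every setting run. Both libraries have the same weight in the calls, and leaving out a library gave 1 to 2 expressed stellate cell and fibroblast markers (Des passing in control 14 alone) and 3 to 5 lacking junction genes. Expressed stellate cell markers numbered 2 at 0.5 TPM and 2 by CPM, against 1. Expressed erythroid markers numbered 1 at 2 TPM, 0 by CPM and 0 from counts and exon length, against 2, and lymphocyte markers 1 from counts, against 0. Lacking members numbered 5 for junction genes at 0.2 TPM (against 3), 2 for gluconeogenesis at 0.05 TPM (against 4), and for lipoprotein receptors 1 at 0.05 TPM and 0 under 3 counts (against 2). Lacking endothelial markers were 4 under 3 counts, against 8. Symbols at least 2-fold apart between the control libraries numbered 450, but 223 with a pseudocount of 1, 84 from a mean of 10 TPM, 3548 with no filter, 181 among protein-coding genes, and 60 from counts scaled by TMM. The highest 10 symbols held 9.2% of TPM, 7.19% without mitochondrial and ribosomal protein genes and 10.3% from counts. Listed hepatocyte genes with the palindromic motif numbered 0 for its full length and 5 for its first 8 letters. Of single pairs, Igf2 over Igf1 turned to -0.31 from counts. The cause of these shifts was not tested. Protein-coding genes only, count-based TPM for the calls and the 8-letter motif were chosen after the data were seen. No paired analysis was possible because the result comes from no test between groups.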

Other observations

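Imprinted genes, which are expressed from the maternal or the paternal copy alone, stood out among the fetal genes at 0, so 29 of them were listed after those values were seen. Of these 29, 19 were lacking, 3 lay between and 7 were expressed, which is a description with no test. Lacking were 60.1% of all symbols and 37.3% of protein-coding genes, and the list mixes coding and non-coding genes. It also holds the genes that had been seen at 0, so the count is no result about imprinted genes. The genes of the Dlk1 and Meg3 cluster were lacking on both sides of the imprint. Dlk1 and Rtl1, from the paternal copy, and Meg3, Rian and Mirg, from the maternal copy, had 0 counts in both libraries. Peg3, Zim1 and Usp29 of the Peg3 cluster had 0 counts, as did Peg10 and Sgce, which lie side by side. Ndn, Magel2, Snrpn and Peg12 had 0 counts as well. In the highest of all 8 libraries the level reached 0.281 TPM for Snrpn and 0.114 TPM for Mirg. The imprinted genes that were expressed included Zrsr1 at 19.8 and 24.9 TPM, and Airn, a long antisense RNA, at 9.8 and 14.8 TPM. Igf2r, the receptor gene that Airn overlaps, had 4.77 and 6.91 TPM with 584 and 714 counts. Kcnq1ot1 had 1.23 and 2.03 TPM, Grb10 1.55 and 1.53 TPM and Nnat 3.47 and 2.4 TPM. Where Airn and Igf2r overlap, reads cannot be told apart without strand. Their annotated exons are not shared, since exons of other genes cover 0% of the exon length of each.

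Small proline-rich proteins are known as building blocks of the cornified envelope of skin, and 17 symbols of the family were looked up after the values were seen. Sprr1a stood at 3576 and 3098 TPM with 46324 and 36347 counts, rank 16 among protein-coding genes and above Gapdh in both libraries. Sprr1b had 68 and 66.1 TPM, and Sprr2h 6.58 and 6.98 TPM. Sprr2g, annotated as a polymorphic pseudogene, had 10.3 and 31.4 TPM but 326 and 290 counts. Sprr2b, Sprr2d and Sprr2f were at 0 counts. Members of the Sprr2 group are near-identical, so the split of reads among them is uncertain.

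Xist, the RNA that coats the inactive X chromosome, stood at 123 and 187 TPM with 22865 and 34472 counts. The genes Ddx3y, Kdm5d, Uty and Eif2s3y of the Y chromosome were at 0 counts in both libraries, while the X-linked partners Eif2s3x (191 and 221 TPM), Kdm5c (72 and 78.8 TPM) and Kdm6a (21.3 and 27.9 TPM) were expressed. Other symbols placed on the Y chromosome that met the rule numbered 7, of which 4 are annotated as pseudogenes and 3 as protein-coding predicted genes. Among them the predicted protein-coding gene Gm47283 had 57.2 and 46.3 TPM with 319 and 202 counts, and the pseudogene Mid1-ps1 27 and 24.3 TPM with 57 and 63 counts. Gapdh-ps15 had 236.6 and 214 TPM with 2 and 3 counts. The other 4 had at most 4 counts in a library.

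The 15 highest symbols were mitochondrial genes, symbols of predicted genes, Eef1a1 and the ribosomal protein gene Rplp0. The 37 symbols with the mitochondrial prefix held 7.77% and 7.94% of TPM, led by mt-Co1 at 16826 and 17341 TPM, and the ribosomal protein genes 12.8% and 11.8%. The 15 highest symbols also held mt-Atp8, mt-Nd1, mt-Atp6, mt-Co2, mt-Co3, mt-Cytb and mt-Nd2, and the symbols Gm10925, Gm29216, Gm28661 and Gm28437, which are annotated as pseudogenes, with Gm27597, annotated as a miRNA. Gm10925 stood at 9913 and 9978 TPM. Gm28661 had 7465 and 7015 TPM, beside 7467 and 7025 TPM for mt-Co2. Gm28437 had 5028 and 4694 TPM, beside 5024 and 4689 TPM for mt-Co3. These pseudogene symbols lack the prefix and are not in the mitochondrial share. Whether they hold reads of mitochondrial genes was not tested, so their levels are uncertain. Eef1a1 had 7532 and 7549 TPM, Rplp0 4628 and 4578 TPM and Tmsb10 3945 and 3257 TPM. Apoe, an apolipoprotein gene in none of the lists, had 1518 and 1359 TPM, and Phgdh, which opens serine synthesis, 1317 and 1274 TPM.

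The control libraries differed with gene length. Among protein-coding genes with a mean of 10 TPM or more, the median log2 ratio of control 14 over control 16 was 0.07 in those with an exon length up to 2886 bases and -0.22 in those from 6953 bases. Its part in single levels was not tested. Among the symbols with the widest gaps in TPM, several had similar counts. Plagl2 had 1.89 and 24.5 TPM but 1682 and 1830 counts, Pcdhgc3 37.3 and 4.86 TPM but 818 and 911 counts, and Zfx 10.7 and 50 TPM but 2983 and 3361 counts. Noct, Ccdc71, Rab22a and Ahcyl2 were likewise lower, and Zfp422, Ak4 and Nkiras2 higher, in control 14 by TPM, each with counts within 1.5 times of each other. Rab43, Ywhaq-ps3, Scamp4 and Wdr74 were higher in control 14 by TPM, with at most 84 counts in a library. Exosc6, at 2.59 and 35.8 TPM, had 0 counts in both.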
